A study of Mus musculus with 6 samples.

Results

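The genes described here are 42 endothelial and angiogenesis genes: surface proteins, receptors, transcription factors and secreted factors that mark blood vessel lining or take part in vessel growth. They were taken from a list of names out of a table of 54309 gene identifiers, a list drawn up with earlier results of these data known. All 42 were found, and all 42 were among the 13963 genes with enough reads to be tested. Whole-tumor RNA was sequenced from subcutaneous tumors grown from MCA205, a fibrosarcoma line of the mouse that can be transplanted between mice of one strain. Female C57BL/6J mice, 7 weeks old, received 1000000 tumor cells in the right flank and drank either milliQ water (control tumors) or 0.1 mg/mL FF-10101 from day 1 to day 8, when 3 tumors per group were collected. FF-10101 is a covalent inhibitor of the kinase FLT3 that the study used against CSF1R, the receptor that macrophages depend on, so the comparison asks what that treatment changed in the tumor as a whole.

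Endothelial cells line every blood vessel and are joined by vessel-specific cadherins and claudins. Their growth is driven by VEGF acting on tyrosine kinase receptors, held in check by angiopoietin signalling through TEK, and shaped by Notch and apelin signals at the tips of new sprouts. Venules display selectins that slow circulating leukocytes, and capillaries carry proteins for exchange with the tissue. A single cell line grown in one place is a narrow model of tumor vessels, and the vessels are those of the host mouse. Because RNA came from whole tumors, a change in endothelial cell number and one in RNA per endothelial cell cannot be told apart.

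Values below are normalized counts, that is, reads recovered from the deposited log2 values and scaled for the depth of each tumor, given for tumors 1, 2 and 3 of each group in that order. Fold changes are log2 values of FF-10101 over control on the log2(normalized count + 1) scale, with a standard error (SE). Total reads ranged from 9143806 to 13258258 per tumor, and a count of 0 allows up to 3 reads, or 2.29 to 3.38 normalized counts depending on the tumor (counting error only). Only a replicate number and the stated n of 3 describe how the tumors relate, so p values measure the spread between these 6 tumors. One library stood apart: across the genes tested, control tumor 1 correlated with the other controls at r = 0.916 to 0.929 and with FF-10101–treated tumors at r = 0.952 to 0.961, whereas control tumors 2 and 3 correlated at r = 0.975. Fold changes and counts are therefore given with all 6 tumors and, for most, then without it. Control tumor 1 was picked from these same data for its likeness to the treated tumors. Leaving it out therefore favors larger differences, and p values and counts without it are a description, not an independent test.

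Endothelial genes were mostly higher in FF-10101–treated tumors, and control tumor 1 lay with the treated tumors in most of them. Log2 fold changes were positive in 39 of the 42 genes, with a median of 1.10 beside 0.02 over all genes tested, and exceeded 1 in 24. With all 6 tumors, 0 of the 42 genes passed a limma adjusted p of 0.05, against 0.0430% of all genes tested in either direction, and limma-voom on the recovered reads also called 0. At an unadjusted limma p of 0.05, 21 genes were higher and 0 lower, against 8.77% of all genes that were higher and 7.49% that were lower at that level. The groups did not overlap in 8 genes, each higher under FF-10101, namely Cd34, Ecscr, Flt1, Tek, Erg, Sox7, Sele and She, while 10.9% of all genes were separated in that direction. The count at an unadjusted limma p of 0.05 fell to 6, 8, 10 and 6 without control tumors 2 and 3 and treated tumors 2 and 3 in turn. The count without overlap was 16 when tumors were scaled to the 75th percentile of their genes and 19 without treated tumor 1. Shares over all genes were not taken in these settings, and fewer tumors separate more easily, so these counts cannot be set against 10.9%.

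Control tumor 1 exceeded both other controls in 38 of the 42 genes. In 25 genes it lay within the range of the FF-10101–treated tumors, and in another 8 it lay above that range. Without it, 33 genes passed a limma adjusted p of 0.05, all higher under FF-10101 (36 at an unadjusted p), where the share of all genes called higher was 12.0%. Both remaining controls were below every treated tumor in 37 genes, beside 28.4% of all genes, and the median log2 fold change was 1.68 beside 0.04 over all genes. The 5 genes without that separation were Cd93, Esm1, Apln, Gpihbp1 and Shank3.

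**Figure D1:**
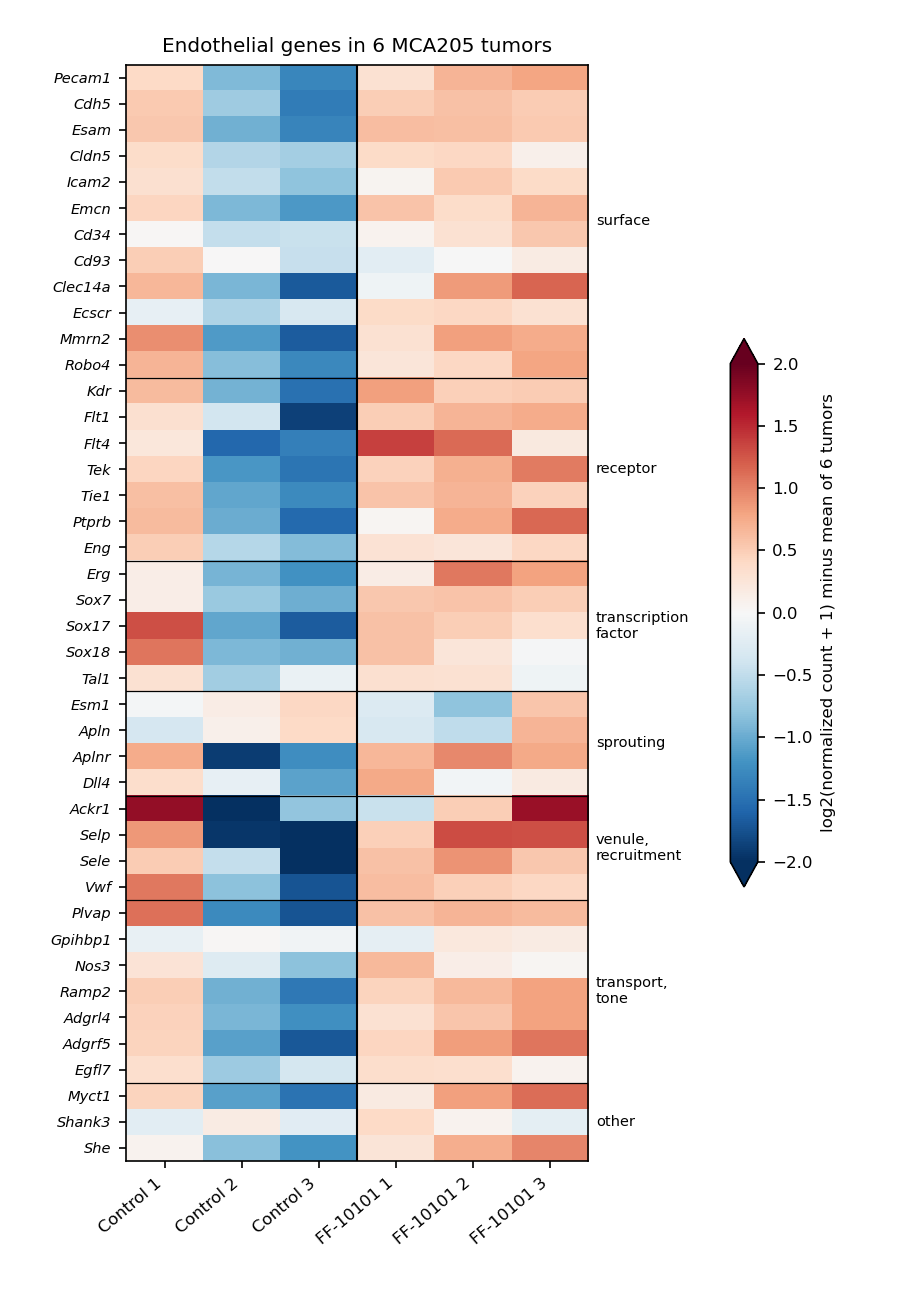
Log2(normalized count + 1) of each of the 42 genes (rows, grouped by role) in each of the 6 tumors (columns), minus the mean of the gene over the tumors; red is above and blue below that mean, and colors stop at 2 log2 units. Control tumors 2 and 3 are blue in most rows, whereas control tumor 1 and the FF-10101–treated tumors are red; the median over genes was 0.44, −0.87 and −1.23 in control tumors 1, 2 and 3 and 0.39, 0.55 and 0.54 in the treated tumors.

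The defining surface markers were read in every tumor and were lowest in control tumors 2 and 3. Pecam1, the adhesion protein CD31 at endothelial junctions, was counted at 1967, 809 and 605 in the controls and 1849.8, 2400.3 and 2566 under FF-10101. Its means were 1127 ± 735 in control tumors and 2272 ± 375 in FF-10101–treated tumors (SD, n = 3), and its log2 fold change was 1.19 ± 0.40 (SE, limma adjusted p = 0.245). Control tumor 1 was above the lowest treated tumor, so the groups overlapped, and without that tumor the log2 fold change was 1.69 (limma adjusted p = 0.00165).

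Cdh5 encodes VE-cadherin, which holds endothelial cells together. Its counts were 1267, 541 and 335 in the controls and 1249, 1327 and 1262 under FF-10101, with means of 715 ± 489.8 in control tumors and 1279 ± 41.6 in FF-10101–treated tumors (SD, n = 3). The 3 treated tumors were nearly equal, while the controls spread widely. The log2 fold change of Cdh5 was 1.06 ± 0.42 (SE, limma adjusted p = 0.284), and 1.58 (limma adjusted p = 0.00272) without control tumor 1.

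Among the other junction proteins, Esam had a log2 fold change of 1.16 ± 0.43 (SE, limma adjusted p = 0.263), Cldn5, the main claudin of tight vessel walls, of 0.59 ± 0.28 (SE, limma adjusted p = 0.342), and Icam2, a ligand for leukocyte integrins, of 0.65 ± 0.31 (SE, limma adjusted p = 0.34). Emcn, a sialomucin of capillaries and veins, stood at 1.08, and the glycoproteins Clec14a and Mmrn2, which bind each other, at 1.29 and 1.24. Robo4, a guidance receptor that stabilizes vessels, stood at 0.97. In these 7 genes control tumor 1 was above both other controls, and each passed the adjusted test without it, at log2 fold changes from 0.93 (Cldn5) to 2.02 (Mmrn2).

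Cd34 and Ecscr had the highest levels per kilobase of transcript of the 42 genes and smaller, tighter differences. Cd34, a sialomucin that also marks fibroblast and progenitor cells, was counted at 3861, 2731 and 2798 in the controls and 4005, 4703 and 5532 under FF-10101. The log2 fold change of Cd34 was 0.61 ± 0.20 (SE, limma adjusted p = 0.242), and every treated tumor was above every control. Ecscr, a small surface protein that modulates endothelial migration, was counted at 967, 709 and 865 in the controls and 1414, 1453 and 1335 under FF-10101. Its log2 fold change of 0.74 ± 0.16 (SE, limma adjusted p = 0.229) had the lowest unadjusted limma p of the 42 genes, 0.00169, and the gap between its groups was larger than the range within either. Control tumor 1 was not set apart in Ecscr, where the controls ran from 709 to 967. Without it the log2 fold changes of Cd34 and Ecscr were 0.77 (limma adjusted p = 0.0143) and 0.84 (limma adjusted p = 0.00693).

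Cd93, a lectin-like receptor of endothelial and myeloid cells, did not share the difference. It was counted at 1537, 1101 and 796 in the controls and 946, 1085 and 1224 under FF-10101, so the treated tumors lay inside the control range. Its log2 fold change was −0.03 ± 0.24 (SE, limma adjusted p = 0.955), and 0.20 (limma adjusted p = 0.447) without control tumor 1, where the sign turned, as it did when tumors were scaled to the 75th percentile (0.02). Of the 12 surface genes, 11 had a positive fold change, 6 were higher at an unadjusted limma p of 0.05, and 11 passed the adjusted test without control tumor 1, Cd93 being the exception.

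**Figure D2:**
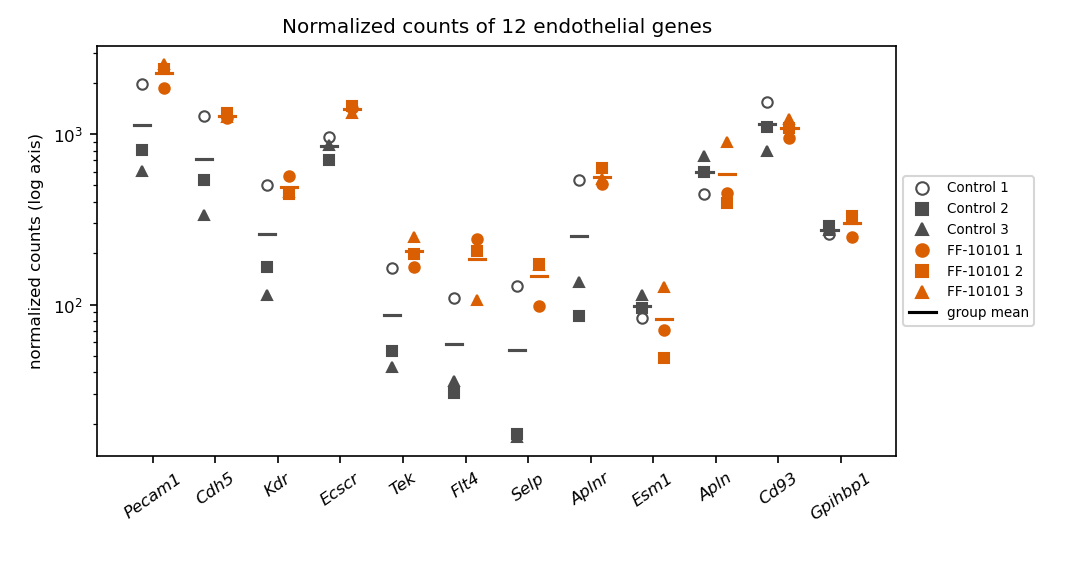
Normalized counts (log axis) of 12 endothelial genes in single tumors: controls in gray, FF-10101 in orange, a symbol for each replicate number, control tumor 1 open, and bars at the group means. From Pecam1 to Aplnr, control tumor 1 lies near the treated tumors in every gene except Ecscr, whereas Esm1, Apln, Cd93 and Gpihbp1 overlap between groups with or without it.

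All 7 receptor genes had a positive fold change, 6 of them at an unadjusted limma p of 0.05, and all 7 passed the adjusted test without control tumor 1. The promoters of Kdr, Tie1 and Selp, whose RNAs followed the average of the endothelial genes over the tumors, and of Esm1 and Apln, whose RNAs did not follow it, are printed here because the RNA data contrast them. They are the 250 bases before the transcription start from RefSeq on GRCm38.p6, 5′ to 3′ on the strand of the gene, with GGAA or its complement TTCC, the core bound by ETS factors such as ERG, in capitals. Kdr lies at chr5:75978456-75978705 on the minus strand, Tie1 at chr4:118489850-118490099 on the minus strand, Selp at chr1:164115014-164115263 on the plus strand, Esm1 at chr13:113209409-113209658 on the plus strand, and Apln at chrX:48034854-48035103 on the minus strand.
Kdr: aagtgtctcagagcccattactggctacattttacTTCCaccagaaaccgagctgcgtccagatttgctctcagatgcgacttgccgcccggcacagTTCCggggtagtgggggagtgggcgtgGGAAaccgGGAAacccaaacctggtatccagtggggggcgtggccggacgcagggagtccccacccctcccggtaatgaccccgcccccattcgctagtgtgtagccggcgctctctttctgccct
Tie1: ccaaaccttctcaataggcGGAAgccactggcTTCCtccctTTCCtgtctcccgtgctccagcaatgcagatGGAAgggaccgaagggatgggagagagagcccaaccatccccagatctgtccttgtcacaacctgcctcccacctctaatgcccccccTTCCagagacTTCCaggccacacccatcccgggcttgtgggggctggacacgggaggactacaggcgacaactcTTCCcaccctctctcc
Selp: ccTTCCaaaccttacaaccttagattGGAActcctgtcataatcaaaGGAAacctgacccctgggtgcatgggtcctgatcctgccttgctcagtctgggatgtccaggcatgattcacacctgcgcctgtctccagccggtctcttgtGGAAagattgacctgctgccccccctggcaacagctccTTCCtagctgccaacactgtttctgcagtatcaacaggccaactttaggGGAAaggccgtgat
Esm1: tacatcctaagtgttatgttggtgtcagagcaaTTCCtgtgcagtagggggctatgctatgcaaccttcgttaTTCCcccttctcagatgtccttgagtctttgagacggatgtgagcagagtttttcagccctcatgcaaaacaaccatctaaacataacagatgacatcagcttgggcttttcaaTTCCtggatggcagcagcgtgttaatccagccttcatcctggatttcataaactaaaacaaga
Apln: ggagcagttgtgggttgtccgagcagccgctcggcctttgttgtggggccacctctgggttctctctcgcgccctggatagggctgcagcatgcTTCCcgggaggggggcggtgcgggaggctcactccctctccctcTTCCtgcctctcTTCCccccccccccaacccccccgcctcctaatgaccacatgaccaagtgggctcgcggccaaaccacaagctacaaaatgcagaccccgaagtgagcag
Tie1 holds 7 and Selp 6 GGAA cores, Kdr holds 4, and Esm1 and Apln hold 3 each. Genes that followed the average also held few or none, with 0 in Cldn5, 2 in Tek and 3 in Robo4. Of the 42 genes, 25 matched the promoter table, with 31 promoters. On either strand, GGAA was found in 93.5% of those and in 93.4% of all 32851 promoters, with a median of 4 and 3 matches. The longer ETS site CCGGAAGT was in 0 of the 31 and in 2.88% of all, the SOX core ACAAT in 19.4% and 27.7%, and the KLF core CACCC in 54.8% and 52.0%. These matches describe letters in this window, not binding.

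Kdr, the main signalling receptor for VEGF-A, was counted at 499.8, 165 and 113 in the controls and 569, 444 and 458 under FF-10101. Means were 259 ± 209.8 in control tumors and 490.3 ± 68.5 in FF-10101–treated tumors (SD, n = 3). Its log2 fold change was 1.20 ± 0.48 (SE, limma adjusted p = 0.29), and 1.83 (limma adjusted p = 0.00181) without control tumor 1, which was the only control within the treated range. Flt1, a high-affinity VEGF receptor that mostly acts as a trap, was counted at 409, 254 and 88.7 in the controls and 458, 525 and 546 under FF-10101. No control reached the lowest treated tumor, although control tumor 1 came close to it. For Flt1 the log2 fold change was 1.27 ± 0.49 (SE, limma adjusted p = 0.275), and 1.75 (limma adjusted p = 0.0163) without control tumor 1.

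Flt4, the receptor for VEGF-C and VEGF-D on lymphatic and sprouting endothelium, had the second largest fold change of the 42. Its counts were 109, 30.4 and 35.5 in the controls and 242, 205 and 107 under FF-10101. Control tumor 1 and treated tumor 3 were nearly equal, and the other tumors of each group were well apart. In log2 units the fold change was 1.81 ± 0.52 (SE, limma adjusted p = 0.229), and 2.37 (limma adjusted p = 0.00466) without control tumor 1.

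Tek, the angiopoietin receptor TIE2 that keeps vessels quiescent, was counted at 164, 53.2 and 43.3 in the controls and 166, 199 and 249.8 under FF-10101. The groups did not overlap, but control tumor 1 and treated tumor 1 were almost equal. For Tek the log2 fold change was 1.47 ± 0.47 (SE, limma adjusted p = 0.24), and 2.05 (limma adjusted p = 0.00194) without control tumor 1. Tie1, its orphan partner receptor, had a log2 fold change of 1.14 ± 0.44 (SE, limma adjusted p = 0.277), and Ptprb, the phosphatase VE-PTP that acts on TEK, of 1.29 ± 0.54 (SE, limma adjusted p = 0.301). Eng, a co-receptor for TGF-β and BMP9, was the best-read receptor, at 2044, 979 and 789 in the controls and 1767, 1706 and 1927 under FF-10101. Its difference was the smallest of the receptors, 0.63 ± 0.32 (SE, limma adjusted p = 0.367), with control tumor 1 above every treated tumor. Without that tumor Tie1, Ptprb and Eng stood at 1.73 (limma adjusted p = 0.000681), 1.92 (limma adjusted p = 0.00753) and 1.03 (limma adjusted p = 0.00388).

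**Figure D3:**
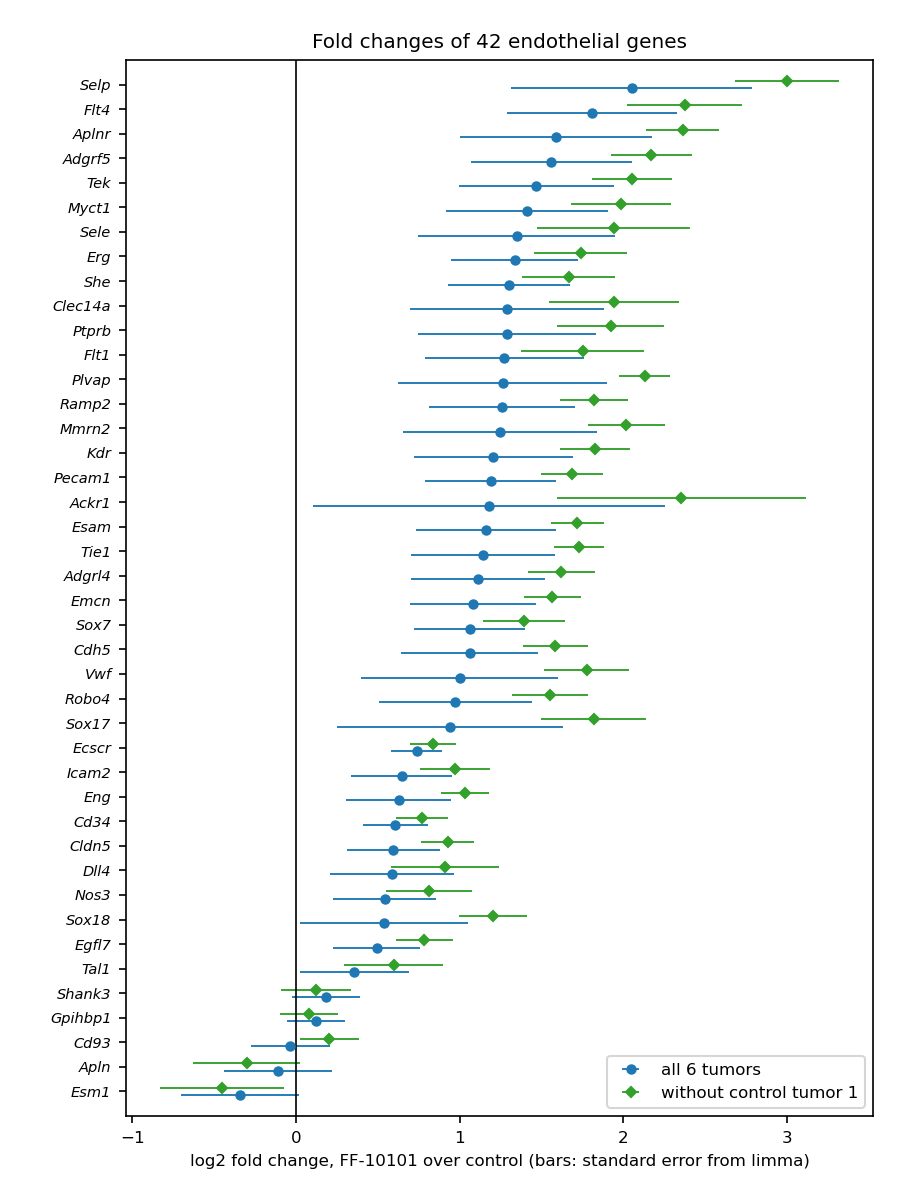
Log2 fold changes of FF-10101 over control on the log2(normalized count + 1) scale for the 42 genes, ordered by the value with all 6 tumors (circles) and shown beside the value without control tumor 1 (diamonds); bars are standard errors from limma. Without that tumor the estimates move to the right for most genes and most errors shrink, while Shank3, Gpihbp1, Cd93, Apln and Esm1 stay near or below 0.

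Of the 5 transcription factors, Erg and Sox7 separated the groups. Erg, the ETS factor that maintains endothelial identity, was counted at 165, 78.2 and 64.3 in the controls and 166, 313 and 262 under FF-10101. That gave a log2 fold change of 1.33 ± 0.39 (SE, limma adjusted p = 0.229), although control tumor 1 and treated tumor 1 were almost equal. Sox7, a SOXF factor, was counted at 60.8, 32.6 and 27.7 in the controls and 81.0, 82.5 and 78.2 under FF-10101, with treated tumors nearly equal and a log2 fold change of 1.06 ± 0.34 (SE, limma adjusted p = 0.238). Erg stood at 1.74 (limma adjusted p = 0.00628) and Sox7 at 1.39 (limma adjusted p = 0.00935) without control tumor 1.

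The other 2 SOXF factors, Sox17 of arteries and Sox18 of vessels and lymphatics, were highest in control tumor 1. Sox17 was counted at 118, 22.8 and 14.4 in the controls and 72.5, 67.3 and 60.4 under FF-10101 and had a log2 fold change of 0.94 ± 0.69 (SE, limma adjusted p = 0.519). Sox18 was counted at 627, 159 and 152 in the controls and 447, 353 and 293 under FF-10101 and had a log2 fold change of 0.53 ± 0.51 (SE, limma adjusted p = 0.621). Without control tumor 1 their log2 fold changes were 1.82 (limma adjusted p = 0.00823) and 1.20 (limma adjusted p = 0.00752). Tal1, a factor shared by endothelial and blood-forming cells, had the lowest level per kilobase of the 42 genes and a log2 fold change of 0.36 ± 0.33 (SE, limma adjusted p = 0.609), and 0.60 (limma adjusted p = 0.189) without that tumor.

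Genes of sprouting vessels split. Esm1 and Apln, secreted factors of tip cells, had the lowest fold changes of the 42, whereas Aplnr, the receptor for apelin, had one of the 3 highest. Esm1 was counted at 83.3, 95.6 and 114 in the controls and 71.0, 48.9 and 127 under FF-10101, and Apln at 446, 601 and 742 in the controls and 449.8, 393 and 898 under FF-10101. In both genes treated tumor 3 was the highest of the 6 tumors and treated tumor 2 the lowest, so the treated tumors spanned the whole control range. Their log2 fold changes were −0.34 ± 0.36 (SE, limma adjusted p = 0.654) and −0.11 ± 0.33 (SE, limma adjusted p = 0.888), and without control tumor 1 −0.45 (limma adjusted p = 0.421) and −0.30 (limma adjusted p = 0.531).

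Aplnr was counted at 540.3, 85.8 and 135 in the controls and 510.2, 629 and 541 under FF-10101. Control tumors 2 and 3 were far below every other tumor, and control tumor 1 lay among the treated ones. The log2 fold change of Aplnr was 1.59 ± 0.59 (SE, limma adjusted p = 0.263), and 2.36 (limma adjusted p = 0.000825) without control tumor 1. Dll4, the Notch ligand of tip and arterial cells, had a log2 fold change of 0.59 ± 0.38 (SE, limma adjusted p = 0.467), and 0.91 (limma adjusted p = 0.0832) without it.

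The 4 genes of venules and leukocyte recruitment included the largest fold change. Selp, the P-selectin that endothelium and platelets store in granules, was counted at 128, 17.4 and 16.6 in the controls and 97.8, 174 and 172 under FF-10101. Its means were 54.1 ± 64.3 in control tumors and 148 ± 43.2 in FF-10101–treated tumors (SD, n = 3). The log2 fold change was 2.05 ± 0.74 (SE, limma adjusted p = 0.258), and 2.998 (limma adjusted p = 0.00125) without control tumor 1, which was higher than treated tumor 1. Sele, the inducible E-selectin, was counted at 57.4, 28.2 and 8.87 in the controls and 60.3, 74.9 and 58.7 under FF-10101. Its groups did not overlap, and its log2 fold change was 1.35 ± 0.60 (SE, limma adjusted p = 0.318), and 1.94 (limma adjusted p = 0.0236) without control tumor 1.

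Vwf, the clotting factor stored with P-selectin, had a log2 fold change of 1.00 ± 0.60 (SE, limma adjusted p = 0.434), and 1.77 (limma adjusted p = 0.00452) without control tumor 1, its highest tumor. Ackr1, the chemokine-binding receptor of venules, was the least certain, with counts of 95.7, 3.26 and 15.5 in the controls and 19.9, 39.1 and 93.3 under FF-10101. Control tumor 2 held only 3 reads of it. The log2 fold change of Ackr1 was 1.18 ± 1.08 (SE, limma adjusted p = 0.604), and 2.35 (limma adjusted p = 0.0606) without control tumor 1.

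In the transport and tone group, all 7 genes had a positive fold change and 3 reached an unadjusted limma p of 0.05, namely Ramp2, Adgrl4 and Adgrf5. Plvap, the protein of the diaphragms across endothelial pores and the best-read gene of the group, was counted at 3171, 607 and 447 in the controls and 2219, 2353 and 2278 under FF-10101. Control tumor 1 was the highest of all 6 tumors, far above the other controls, and the treated tumors were nearly equal. Its log2 fold change was 1.26 ± 0.64 (SE, limma adjusted p = 0.359), and 2.13 (limma adjusted p = 0.000328) without control tumor 1, the lowest adjusted p of the 42 genes in that fit.

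Adgrf5, an adhesion G protein-coupled receptor, had a log2 fold change of 1.56 ± 0.49 (SE, limma adjusted p = 0.235), Ramp2, the adrenomedullin co-receptor, of 1.26 ± 0.45 (SE, limma adjusted p = 0.255), and Adgrl4, another adhesion receptor, of 1.11 ± 0.41 (SE, limma adjusted p = 0.265). Nos3, the nitric oxide synthase of vessel tone, stood at 0.54 ± 0.31 (SE, limma adjusted p = 0.419), and Egfl7, a secreted matrix protein, at 0.49 ± 0.27 (SE, limma adjusted p = 0.386). Without control tumor 1 Adgrf5, Ramp2 and Adgrl4 stood at 2.17 (limma adjusted p = 0.00167), 1.82 (limma adjusted p = 0.00176) and 1.62 (limma adjusted p = 0.00266), and Nos3 and Egfl7 at 0.81 (limma adjusted p = 0.0608) and 0.78 (limma adjusted p = 0.017). Gpihbp1, which carries lipoprotein lipase across capillaries, was counted at 258, 290.1 and 273 in the controls and 250.5, 329 and 319 under FF-10101. It was the steadiest of the 42 over the tumors, with a log2 fold change of 0.12 ± 0.18 (SE, limma adjusted p = 0.748), and 0.08 (limma adjusted p = 0.775) without control tumor 1.

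Of the remaining 3 genes, She, an SH2 adaptor, was counted at 84.4, 44.5 and 34.4 in the controls and 95.5, 134 and 158 under FF-10101. Its groups did not overlap, and its log2 fold change was 1.30 ± 0.37 (SE, limma adjusted p = 0.229). Myct1, a small vessel protein, had a log2 fold change of 1.41 ± 0.50 (SE, limma adjusted p = 0.253), and Shank3, a scaffold protein best known from synapses, of 0.18 ± 0.21 (SE, limma adjusted p = 0.675). She, Myct1 and Shank3 stood at 1.67 (limma adjusted p = 0.00753), 1.98 (limma adjusted p = 0.00517) and 0.12 (limma adjusted p = 0.707) without control tumor 1.

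Most of the genes varied together over the tumors. As a yardstick, 8 genes used by blood vessel endothelium throughout the body (Cdh5, Tie1, Robo4, Clec14a, Mmrn2, Ptprb, Ecscr and Esam) were averaged on the log2 scale. Relative to its 6-tumor mean, this average was 0.55, −0.90 and −1.31 in control tumors 1, 2 and 3 and 0.32, 0.64 and 0.71 in the treated tumors. Their summed normalized counts were 4953, 2109 and 1850.2 in the controls and 4961, 5541 and 5412 under FF-10101. By this sum control tumor 1 was level with treated tumor 1, and by the log2 average it was above it.

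Over the 6 tumors 29 of the 42 genes had a Pearson r above 0.9 with this average, which includes 8 of them. The share of all genes tested above that r was not counted, and genes outside all lists also reached r of 0.995 to 0.999. These correlations describe 6 tumors that share their scaling. Ramp2 (r = 0.998) and Pecam1 (r = 0.996) followed it most closely. The low end was held by Esm1 (r = −0.416), Apln (r = −0.365), Shank3 (r = 0.057) and Gpihbp1 (r = 0.237). Taking each gene relative to the average narrowed the median SD over the tumors from 0.87 to 0.37 log2 units, and it was narrower in 32 genes.

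On this relative scale, a description with no test, Pecam1 differed between groups by 0.08 and Kdr by 0.09 log2 units. Selp, Flt4 and Aplnr were higher under FF-10101 than the endothelial average, by 0.94, 0.69 and 0.48, and in each the groups overlapped, with 1 treated tumor below control tumor 1. The largest shortfalls under FF-10101 were those of Esm1 (−1.45), Apln (−1.22), Cd93 (−1.15), Gpihbp1 (−0.99) and Shank3 (−0.93). Of these, Gpihbp1 and Shank3 varied least in absolute level over the tumors (SD 0.16 and 0.26 log2 units), and Esm1 and Apln varied more (0.49 and 0.47).

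**Figure D4:**
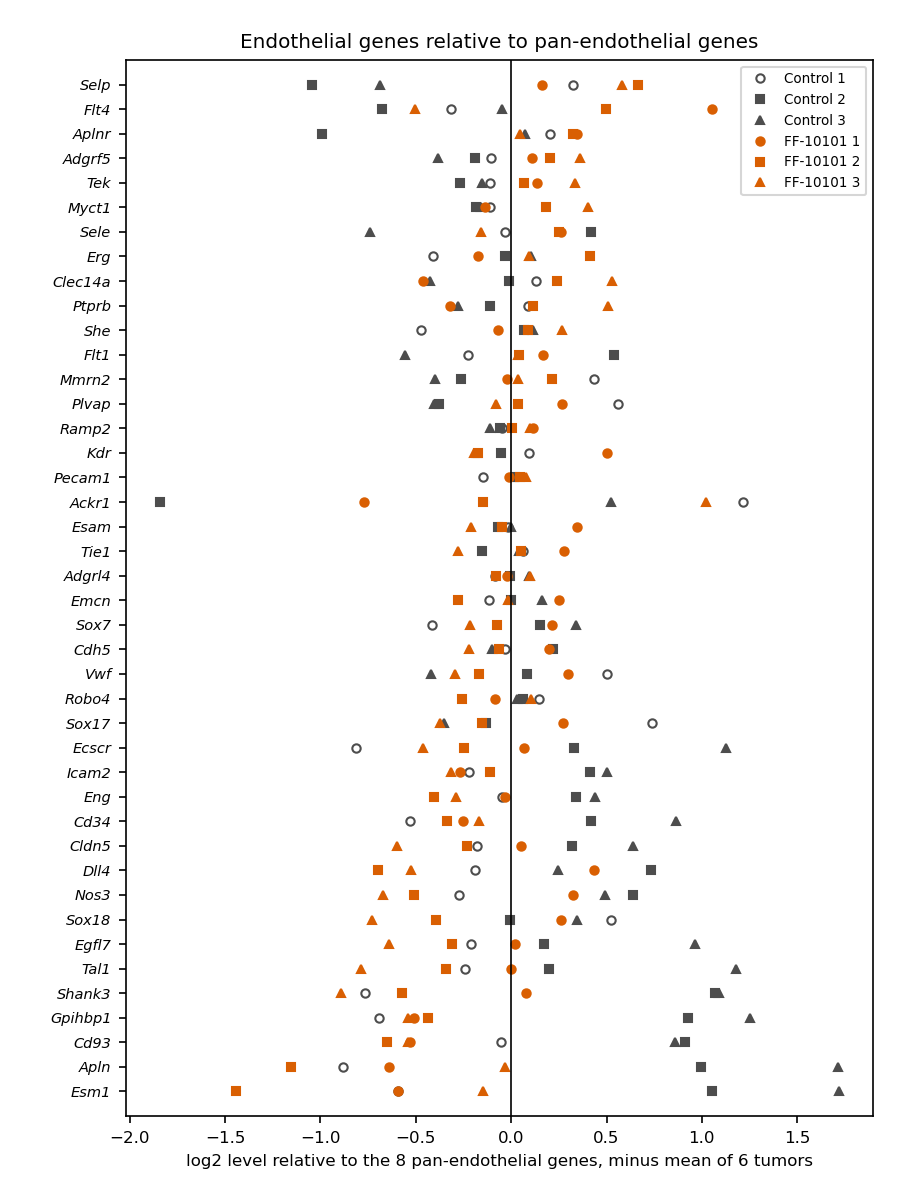
Level of each of the 42 genes relative to the mean of 8 pan-endothelial genes in the same tumor, in log2 units, minus its mean over 6 tumors; gray symbols are controls (control tumor 1 open) and orange symbols FF-10101–treated tumors. Most genes stay within 1 log2 unit of the line at 0, and at the bottom Esm1, Apln, Cd93, Gpihbp1 and Shank3 are high only in control tumors 2 and 3.

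By the rule of highest Pearson r with the average over 6 tumors, the genes outside all lists that were most like it were Ly6i, Pbxip1, Epas1, Prkcq, Slc30a1, Enpp5, Cxcl9, Gbp10, Cdh13 and Csf3r, at r from 0.995 to 0.999. Reads of Ly6i and Gbp10 are uncertain because close copies of these genes exist. Epas1, the hypoxia-inducible factor of endothelium, was counted at 720.4, 202 and 138 in the controls and 671, 729.5 and 833 under FF-10101. Cxcl9, a chemokine induced by interferon-γ, was counted at 12678, 4369 and 3602 in the controls and 12026, 14761 and 16399 under FF-10101.

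The ligands of the receptors did not move as one. Of 28 angiogenic ligands and inhibitors, 24 were tested, with a median log2 fold change of 0.51. At an unadjusted limma p of 0.05, 8 were higher and 1 lower, beside 8.77% and 7.49% of all genes, and 0 passed the adjusted test. Without control tumor 1, 12 passed the adjusted test higher and 1, Vegfb, lower, with a median of 0.71. Over all genes 12.0% and 9.88% were then called higher and lower. Vegfa, the ligand of Kdr and Flt1, was counted at 697, 1239 and 928 in the controls and 720.2, 857 and 1182 under FF-10101 and had a log2 fold change of −0.05 ± 0.26 (SE, limma adjusted p = 0.943), or 0.01 when scaled to the 75th percentile. Vegfb, a ligand of Flt1, was the 1 lower gene, counted at 210.5, 324 and 317 in the controls and 178, 129 and 154 under FF-10101, with a log2 fold change of −0.87 ± 0.23 (SE, limma adjusted p = 0.229) and no overlap between groups. Pgf, another Flt1 ligand, stood at 0.12 ± 0.54 (SE, limma adjusted p = 0.929).

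Angpt1, the activating ligand of Tek, was counted at 278, 286 and 197 in the controls and 391, 556 and 662 under FF-10101, and its log2 fold change was 1.06 ± 0.24 (SE, limma adjusted p = 0.229). Angpt2, the ligand that loosens vessels, stood at 1.02 ± 0.35 (SE, limma adjusted p = 0.249), and Angpt4 at 1.41 ± 0.44 (SE, limma adjusted p = 0.233). The Flt4 ligands Vegfc and Vegfd stood at 0.28 ± 0.17 (SE, limma adjusted p = 0.424) and 0.69 ± 0.23 (SE, limma adjusted p = 0.245). Hgf, a growth factor for endothelium, stood at 1.27 ± 0.36 (SE, limma adjusted p = 0.229), and Slit2, a guidance ligand, at 1.17 ± 0.39 (SE, limma adjusted p = 0.245). Vegfb, Vegfc, Vegfd, Pgf and Angpt2 are named as partners of the receptors and were picked after their values were seen. Without control tumor 1 Vegfa stood at −0.25 (limma adjusted p = 0.448), Vegfb at −1.07 (limma adjusted p = 0.00888) and Pgf at 0.63 (limma adjusted p = 0.331). The Tek ligands Angpt1, Angpt2 and Angpt4 then stood at 1.14 (limma adjusted p = 0.0185), 1.32 (limma adjusted p = 0.0186) and 1.71 (limma adjusted p = 0.0236). Vegfc, Vegfd, Hgf and Slit2 stood at 0.26 (limma adjusted p = 0.304), 0.78 (limma adjusted p = 0.0471), 1.68 (limma adjusted p = 0.00368) and 1.66 (limma adjusted p = 0.00189).

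Further endothelial genes outside the 42 were also mostly higher. Of 39 tested, 0 passed the adjusted test with all 6 tumors, and the median log2 fold change was 0.66. At an unadjusted limma p of 0.05, 20 were higher and 0 lower, beside 8.77% and 7.49% of all genes. The groups did not overlap in 14, each higher, beside 10.9% of all genes. Without control tumor 1, 23 were called higher and 1 lower, beside 12.0% and 9.88% of all genes. The largest log2 fold changes were 2.30 ± 0.57 (SE, limma adjusted p = 0.229) in Cyyr1, 1.92 ± 0.44 (SE, limma adjusted p = 0.229) in Car4, a capillary carbonic anhydrase, 1.77 ± 0.48 (SE, limma adjusted p = 0.229) in Gja5, an arterial connexin, and 1.56 ± 0.34 (SE, limma adjusted p = 0.229) in Palmd. Cyyr1, Car4, Gja5 and Palmd stood at 3.01 (limma adjusted p = 0.000926), 2.22 (limma adjusted p = 0.0101), 2.37 (limma adjusted p = 0.00105) and 1.90 (limma adjusted p = 0.00303) without that tumor. Angpt2 and Pgf are also in the ligand list, Plxnd1 is in the co-receptor list and Mcam in the mural list. Of 22 co-receptors and signalling genes, 4 were higher and 0 lower at an unadjusted limma p of 0.05, with a median of 0.36. With all 6 tumors 0 passed the adjusted test, and without control tumor 1, 6 were called higher, with a median of 0.53. The same shares of all genes stand beside these counts. Among them S1pr1, the sphingosine-1-phosphate receptor of vessel integrity, stood at 1.16 ± 0.33 (SE, limma adjusted p = 0.229), Calcrl, the partner of Ramp2, at 0.60 ± 0.24 (SE, limma adjusted p = 0.291), and the Notch genes Dll1 and Hey1 at 1.32 and 0.82. These 4 genes stood at 1.58 (limma adjusted p = 0.000681), 0.77 (limma adjusted p = 0.0408), 2.14 (limma adjusted p = 0.0217) and 1.19 (limma adjusted p = 0.0252) without that tumor.

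Of 6 inducible adhesion genes, 2 were higher at an unadjusted limma p of 0.05, beside 8.77% of all genes. They were Vcam1 at 1.03 ± 0.31 (SE, limma adjusted p = 0.229) and Cx3cl1 at 0.68 ± 0.17 (SE, limma adjusted p = 0.229). With all 6 tumors 0 passed the adjusted test, and without control tumor 1 all 6 were called higher, beside 12.0% of all genes. Lrg1 and Ackr3 stood at 1.03 and 0.97. Without that tumor Vcam1, Cx3cl1, Lrg1 and Ackr3 stood at 1.40 (limma adjusted p = 0.00112), 0.72 (limma adjusted p = 0.0215), 1.77 (limma adjusted p = 0.00338) and 1.52 (limma adjusted p = 0.0461). Mural cells wrap vessels, and of 13 mural genes, 4 were higher and 1 lower at an unadjusted limma p of 0.05, with a median log2 fold change of 0.69. Without control tumor 1, 5 were called higher and 3 lower, beside 12.0% and 9.88% of all genes. Rgs5, a pericyte marker, was counted at 787, 342 and 353 in the controls and 775, 1313 and 1438 under FF-10101, Myh11, the smooth muscle myosin, at 97.9, 15.2 and 8.87 in the controls and 56.5, 136 and 141 under FF-10101, and their log2 fold changes were 1.31 ± 0.37 (SE, limma adjusted p = 0.229) and 2.05 ± 0.82 (SE, limma adjusted p = 0.288). Abcc9, a channel subunit of pericytes, stood at 1.29 ± 0.44 (SE, limma adjusted p = 0.248). Cnn1, a contractile gene also made by fibroblasts, was the lower one, at −1.76 ± 0.62 (SE, limma adjusted p = 0.253). Rgs5, Myh11 and Abcc9 stood at 1.71 (limma adjusted p = 0.00463), 3.04 (limma adjusted p = 0.00497) and 1.57 (limma adjusted p = 0.0326), and Cnn1 at −2.57 (limma adjusted p = 0.000681), without control tumor 1. Cspg4, the pericyte proteoglycan NG2, stood at −1.17 ± 0.57 (SE, limma adjusted p = 0.345), and −1.74 (limma adjusted p = 0.0272) without control tumor 1, and Acta2, the smooth muscle actin, at −0.76 ± 0.42 (SE, limma adjusted p = 0.39), and −1.26 (limma adjusted p = 0.00967) without it. Cspg4, Acta2, Pdpn and Lyve1 are named after their values were seen.

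The 6 lymphatic genes were uneven among treated tumors. Prox1, Reln and Mmrn1 averaged under 10 normalized counts in controls and reached the minimum mean of 10 only through the treated tumors, so their fold changes and any count over the list are a description. Pdpn and Lyve1, which fibroblasts and macrophages respectively also make, stood at 0.04 and −0.21, and the sign of each depended on which tumor was left out. Prox1, the master factor of lymphatic identity, was counted at 3.38, 0.00 and 5.55 in the controls and 51.9, 22.8 and 9.78 under FF-10101, Reln at 7.88, 0.00 and 4.44 in the controls and 42.8, 18.5 and 8.00 under FF-10101, and Mmrn1 at 23.6, 1.09 and 4.44 in the controls and 90.1, 58.6 and 19.6 under FF-10101. Treated tumor 1 was highest in each and treated tumor 3 lowest of its group, the same order as in Flt4. Ccl21a, for which near-identical copies make the count uncertain, was counted at 75.4, 3.26 and 59.9 in the controls and 923, 597 and 23.1 under FF-10101. The part of lymphatic endothelium in the Flt4 difference was not tested.

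Markers of other cells also moved with the tumors. Summed normalized counts of 8 leukocyte genes were 39787.5 in control tumor 1, 18525 and 17981 in the other controls, and 18914 to 28024 under FF-10101, with a median log2 fold change of 0.08, and 0.37 with 2 called higher without control tumor 1. The 8 skeletal muscle genes ranged from 2884 to 6304 in controls and from 2853 to 9663 under FF-10101, and the 6 tested adipocyte genes had no member at an unadjusted limma p of 0.05. The 5 tested erythroid genes, a sign of blood in the tissue, summed to 533 to 1842 in controls and 724 to 2806 under FF-10101. All 5 had positive fold changes, with a median of 0.77, and 1.26 with 2 called higher without control tumor 1, but Alas2 reached the minimum mean only through the treated tumors. The 9 macrophage genes had a median log2 fold change of −0.70 and the 8 proliferation genes of −0.75. At an unadjusted limma p of 0.05, 6 and 4 of them were lower, beside 7.49% of all genes. Without control tumor 1 the medians were −0.49 and −1.01. In that fit 2 macrophage and 6 proliferation genes passed the adjusted test lower, where 9.88% of all genes were called lower and 12.0% higher. Their part in the endothelial differences was not tested.

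**Figure D5:**
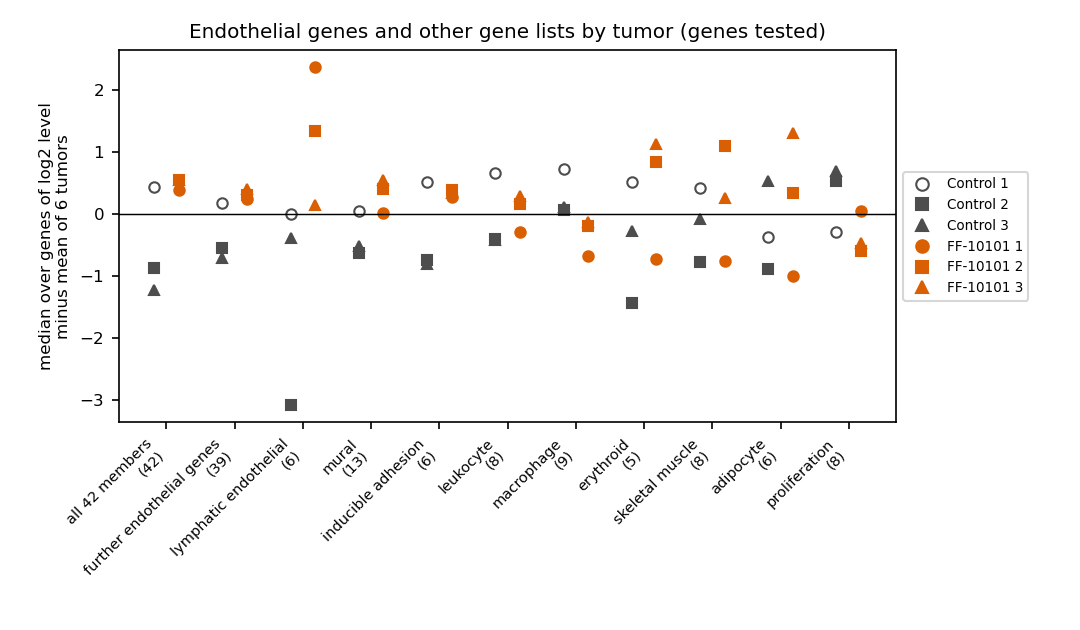
Median over the genes of a list of log2(normalized count + 1) minus the gene mean over 6 tumors, for the 42 endothelial genes and 10 other lists (number of genes tested in parentheses); gray symbols are controls (control tumor 1 open), orange symbols FF-10101–treated tumors. The endothelial, inducible adhesion and leukocyte lists are high in control tumor 1 and low in control tumors 2 and 3; the lymphatic list is highest in treated tumors 1 and 2.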

How the data were processed

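Total RNA of MCA205 tumors was sequenced in 2 groups of 3 tumors, assigned by the sample labels. Per the labels, the authors used fastp version 0.19.5, Salmon version 1.5.1 and DESeq2 version 1.22.1, and the paper gives GENCODE vM27 as the annotation. The deposited log2 values have the form of that package's variance-stabilizing transformation. The analysis had been planned for normalized counts. The inverse of the transformation gave whole reads for 100% of 325854 values (tolerance 1e-06) and 1 size factor per tumor, whose geometric mean was set to 1. Salmon divides reads shared by near-identical copies by estimation, so such genes are uncertain.

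Normalized counts were tested as log2(normalized count + 1) with limma version 3.58.1 (lmFit, eBayes with a trend) in R version 4.3.3, with no term but the group. The 13963 genes whose mean normalized count reached 10 were tested, with Benjamini-Hochberg adjustment over all of them. Because 1 is added, changes of sparsely read genes come out too small. Symbols and transcript lengths came from GENCODE vM21, and promoters from RefSeq on GRCm38.p6. Because that is another build than the one used by the authors, no expression value is placed by coordinates.

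The 42 genes and the other lists were chosen with earlier results of these data known. Of those lists, Sdpr, Ca9 and Ero1a were not matched by symbol, and platelet, mast cell and hypoxia genes were also listed. Values in every tumor were given for Pecam1, Cdh5 and Kdr, for genes whose groups did not overlap, for the 3 highest and 3 lowest fold changes, and for the best-read gene of a larger role group, and values of Ackr1, Gpihbp1, Sox17 and Sox18 were added after they were seen. Of the other lists, Vegfa and the up to 4 genes with the largest absolute fold change were named. Alternatives were other pseudocounts, minimum counts, scalings and variance models, the replicate number as a block, and each tumor left out in turn. The steps were tested on simulated data.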

Additional observations from a re-analysis of the deposited data

How the results depend on the processing

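Of the values for single endothelial genes under the alternatives, 633 kept their direction and side of the threshold, 71 newly passed it and 8 turned their sign. Those that newly passed came only with array weights or without control tumor 1, and every other alternative gave 0. With array weights, which give control tumor 1 a weight of 0.139 and treated tumor 2 one of 8.08, 36 of the 42 genes passed a limma adjusted p of 0.05 higher and 2, Esm1 and Apln, lower, the same numbers as at an unadjusted p of 0.05, and 8365 genes passed over all. With the replicate number as a block, 1 gene passed over all genes and 19 of the 42 were higher at an unadjusted p. In their deviations from the group means, same-numbered tumors correlated at −0.288 to −0.04 and other pairs at −0.126 to 0.315. With 3 tumors per group, these values cannot decide whether the numbers pair the tumors. Scaling to the 75th percentile left 16 of the 42 without overlap, with no share over all genes taken beside it. With no minimum 17 genes passed over all, and with a mean of at least 50, 3.

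Leaving out each tumor in turn gave 0 to 33 of the 42 past the adjusted threshold, 6 to 36 higher at an unadjusted p, 8 to 37 without overlap, 1 to 3051 genes passing over all and a median log2 fold change from 0.72 to 1.68. The upper end came without control tumor 1 each time. Its cause was not tested.

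The sign turned for Cd93 with scaling to the 75th percentile (0.0222) and array weights (0.0117), for Shank3 with array weights (−0.0679) for Lyve1 (0.4755) and Pdpn (−0.1115) with array weights and for Vegfa with scaling to the 75th percentile (0.0109). Over single tumors left out, the log2 fold change of Cd93 was −0.27 to 0.20, that of Apln −0.47 to 0.12, that of Vegfa −0.25 to 0.16 that of Pgf −0.37 to 0.63, that of Lyve1 −0.48 to 0.31 and that of Pdpn −0.0281 to 0.10. The cause was not tested. Ackr1 rests on the fewest reads of the 42, 3 in control tumor 2.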

Other observations

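Platelet genes, of which 4 were tested, had a median log2 fold change of −0.46, with 1 higher and 1 lower at an unadjusted limma p of 0.05. Without control tumor 1 the sign of the platelet median turned (0.205), with 1 gene called higher and 1 lower past the adjusted test. The 5 mast cell genes tested had a median of 1.79, with 4 higher at an unadjusted limma p of 0.05 and 0 lower, beside 8.77% and 7.49% of all genes. With all 6 tumors 0 of them passed the adjusted test. Without control tumor 1 all 5 passed it higher, beside 12.0% of all genes, with a median of 1.72. The summed normalized counts of the 6 mast cell genes listed were 477, 266 and 296 in the controls and 621, 646 and 1649 under FF-10101. The 10 hypoxia genes tested had a median of 0.02, with 0 at an unadjusted limma p of 0.05 in either direction, and share Vegfa and Adm with the ligand list. Without control tumor 1 the hypoxia median was 0.06, with 1 gene past the adjusted test higher and 0 lower.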
